A study of Mus musculus with 6 samples.

Results

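The genes described here take up fatty acids into muscle and burn them by beta-oxidation, and were measured in calf muscle of mice that overexpress integrin alpha7, which binds laminin at the surface of muscle fibres. They were chosen by name as 39 genes of the pathway, and a probe set was assigned to a gene when its annotation carried exactly 1 symbol. Of the 39 genes, 37 had such a probe set among the 18193 genes of the array with a symbol of their own, and Acsl1 and Cpt1b were not analysed here. The 37 genes had 76 probe sets, and each gene had at least 1 among the 70 that lay above the filter on dim signal. The brightest probe set, by its mean over the arrays, stood for a gene in all summaries.

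RNA came from gastrocnemius and soleus muscle of female, non-fasted mice 5 weeks old on an SJ6/C57BL6 background, in a state the labels call basal. The groups were integrin alpha7 transgenic and wild type, with 3 Affymetrix Mouse430_2 arrays each. Every array carried pooled RNA of 6 animals, so 18 animals stood behind a genotype and the spread between single animals was averaged within a pool. The sources used here do not give the promoter that drives the transgene, nor the meaning of the word "intronic" in the titles of the wild type arrays. All values are signals per probe set on a linear scale, and differences are on the log2(signal + 16) scale, transgenic minus wild type, which understates the change of dim probe sets.

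Fatty acids reach a muscle fibre from circulating lipoproteins, which lipoprotein lipase cleaves at the capillary wall, and enter through CD36 and the fatty acid transport proteins. Inside, acyl-CoA synthetases activate them, the carnitine shuttle carries them into the mitochondrion, and a cycle of dehydrogenases, hydratases and thiolases shortens them to acetyl-CoA while electron transfer flavoprotein passes the electrons on. Malonyl-CoA brakes entry at carnitine palmitoyltransferase, and nuclear receptors of the PPAR family with the coactivator PGC-1alpha set the level of many of these genes. Slow, oxidative fibres, which the soleus holds in greater share, rely on this fuel more than fast fibres do.

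Itga7 itself followed the labels, with signals of 254, 308 and 314 on the wild type and 2498, 2144 and 2072 on the transgenic arrays. Array medians were 34.0 to 38.4, and arrays correlated at 0.971 to 0.981 over the probe sets kept. All 8 markers of skeletal muscle lay above the filter and 4 of 5 heart markers (Nppa, Nppb, Myl7 and Tnni3) lay below it. By the recorded time of day of hybridisation the arrays were put into 2 rounds, the second of which held replicate 3 of each genotype. They ran on 4 fluidics modules, each of which held a single genotype, so that module and genotype cannot be told apart.

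None of the 70 probe sets of the fatty acid genes reached an adjusted p of 0.05 with limma, where 0.122% of the 27022 probe sets tested did, 0.0999% higher and 0.0222% lower in transgenic muscle. The smallest adjusted p among the 70 was 0.428. At an unadjusted p of 0.05 there were 6 of 70, all lower in transgenic muscle, beside 7.85% of all probe sets, 4.34% lower and 3.51% higher. These 6 belonged to Cd36, Acat1, Acsl3, Hadh, Crat and Slc22a5, and only that of Hadh was the brightest of its gene, so 1 of 37 genes passed, beside 8.15% of all genes. Over the 37 genes the median log2 difference was -0.04, against -0.00 over all 12942 genes tested, with 22 genes below 0 and 15 above, where 51.0% of all genes lay below 0. With the arrays set to equal medians the sign turned, to a median of 0.010 with 18 genes below 0, against 0.05 over all genes. Single differences ran from -0.37 for Acsl3 to 0.15 for Cpt2.

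The intervals set how large a change could have gone unseen. For 33 of the 37 genes the whole 95% interval lay within 0.5 log2 units of no difference, as it did for 57.5% of all genes. The median half-width was 0.17 for the fatty acid genes and 0.32 for all genes. Intervals were wider for dim genes in this fit, and many of the 37 genes were bright. The 37 genes were not set against genes of like signal, so whether the narrower intervals are a trait of the pathway was not tested. The 4 genes with wider limits were Acsl3, Acot2, Ppard and Ppargc1a. The plot of differences with their intervals shows that Hadh alone had an interval that did not reach 0.

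**Figure D1:**
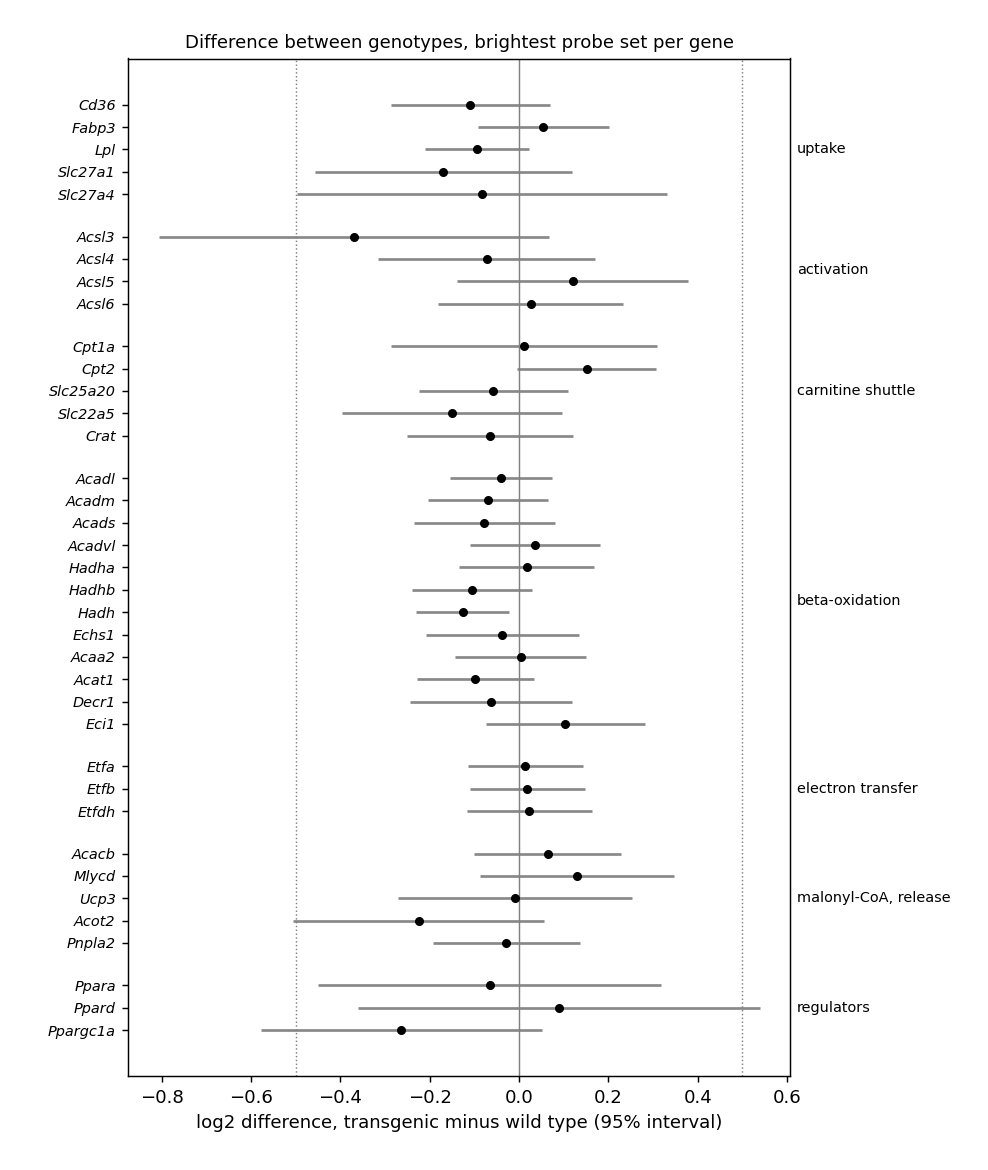
Difference between genotypes for the 37 genes by role, as the log2 difference of transgenic minus wild type on the log2(signal + 16) scale, with points for the estimate from 3 against 3 arrays and bars for the 95% interval of limma. Dotted lines mark 0.5 log2 units on either side of 0, within which 33 of the 37 intervals lie.

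Transgenic and wild type arrays were fully separated for 3 of the 37 genes, 1 higher and 2 lower in transgenic muscle, where 14.2% of all genes tested did not overlap, 6.65% higher and 7.59% lower. The higher one was Cpt2, the carnitine palmitoyltransferase of the inner mitochondrial membrane. The lower ones were Hadh, the short-chain hydroxyacyl-CoA dehydrogenase, and Acads, the short-chain acyl-CoA dehydrogenase. None of the 3 passed the test over all probe sets.

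Among the uptake genes, Lpl, the lipoprotein lipase that frees fatty acids from lipoproteins, had signals of 11430, 10720 and 11470 in wild type and 11050, 10390 and 10060 in transgenic muscle. The lowest wild type array lay below the highest transgenic one, and the log2 difference was -0.09 (interval -0.21 to 0.02, adjusted p 0.717). A dimmer probe set of Lpl read 2328, 1853 and 1853 against 2163, 1968 and 2061, at 0.04. Cd36, the scavenger receptor that carries fatty acids over the membrane, gave 2944, 2464 and 3047 in wild type and 2733, 2588 and 2489 in transgenic muscle on its brightest probe set. The arrays overlapped, at a log2 difference of -0.11 and an adjusted p of 0.797.

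A further probe set of Cd36 had the smallest unadjusted p of all 70, 0.00918, with an adjusted p of 0.428. It read 2448, 2060 and 2441 in wild type and 1952, 1658 and 2063 in transgenic muscle, a 0.817-fold level. Only the highest transgenic array, at 2063, reached past the lowest wild type one, at 2060. The last probe set of Cd36 gave -0.11, so that all 3 had negative differences of unequal size.

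Fabp3, the fatty acid binding protein of muscle cytosol, gave 6685, 7349 and 8045 in wild type against 7886, 7402 and 7581, a log2 difference of 0.05. The transgenic arrays lay inside the wild type range. Its dim probe set read 61.2, 79.1 and 90.9 against 43, 68.2 and 59.2, at -0.36 with overlapping arrays. Slc27a1, the fatty acid transport protein of muscle, gave 331, 331 and 443 against 294, 310.5 and 369, at -0.17 and an adjusted p of 0.804. Its dimmer probe set pointed the other way, at 161, 158 and 152 in wild type and 161, 179 and 163 in transgenic muscle. Its arrays met at 161 without overlapping, at a log2 difference of 0.09. Slc27a4, a related transporter, gave -0.08 with an interval of -0.50 to 0.33.

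The activating acyl-CoA synthetases showed the largest difference of the 37 genes. Acsl3, which acts at the endoplasmic reticulum and lipid droplets, had signals of 144, 119.6 and 158 in wild type and 149, 76.7 and 99.2 in transgenic muscle. Replicate 1 of the transgenic arrays lay in the wild type range and the other two below it. The log2 difference was -0.37 (interval -0.81 to 0.07, adjusted p 0.703). A dimmer probe set read 56.9, 50.1 and 38.8 against 23.9, 34.4 and 20, with no overlap and a 0.649-fold level. The unadjusted p was 0.0204 and the adjusted one 0.539. Acsl6, the brightest of the group, read 426, 414 and 375 against 411, 388 and 439, at 0.03. Acsl4, which prefers arachidonic acid, read 404, 366 and 356 against 371, 395 and 307, at -0.07, and its other probe sets gave -0.25 and 0.08. Acsl5 gave 0.12, and the arrays of all 3 genes overlapped.

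In the carnitine shuttle, Cpt2 gave 1063, 969.8 and 1061 in wild type and 1114, 1149 and 1174 in transgenic muscle. Every transgenic array lay above every wild type one, at means of 1031 ± 53.0 and 1146 ± 30.4 (SD, n = 3). The log2 difference was 0.15 (interval -0.01 to 0.31), 1.11-fold, with a p of 0.0572 before and 0.655 after adjustment. It was 0.15 in hybridisation round 1 and 0.14 in round 2, the latter from 1 array of each genotype. The dim probe set of Cpt2 gave 0.12 with overlapping arrays.

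Cpt1a, the carnitine palmitoyltransferase of the outer membrane in its liver form, gave 166, 227 and 236 against 215, 203 and 209. The transgenic arrays lay within the wild type range, at a log2 difference of 0.01, and both dimmer probe sets were below 0, at -0.28 and -0.26. Both dimmer probe sets, and the dim one of Cpt2, bear the suffix by which Affymetrix marks probes that can bind other transcripts. Slc25a20, the carrier that swaps acylcarnitine for carnitine, read 1342, 1175 and 1302 against 1224, 1283 and 1159, at -0.06, and its other probe set gave 0.00. Slc22a5, the carnitine importer of the plasma membrane, gave 274, 356 and 303 against 266, 286 and 281, at -0.15. Its dimmer probe set read 90.8, 108 and 113 against 79.7, 84.2 and 71.6, with no overlap, a 0.789-fold level and an adjusted p of 0.619.

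Crat, the carnitine acetyltransferase that buffers acetyl-CoA, gave 1672, 1416 and 1598 in wild type and 1359, 1516 and 1603 in transgenic muscle, at -0.06. The arrays overlapped. A dimmer probe set read 603, 598 and 619 against 545, 561 and 416, with no overlap and an adjusted p of 0.600. That probe set bears the suffix by which Affymetrix marks probes that can bind other transcripts. The third gave -0.29, so all 3 probe sets of Crat had negative differences.

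The 12 genes of the beta-oxidation cycle had a median log2 difference of -0.05 and ranged from -0.13 to 0.10. All 12 had intervals within 0.5 log2 units of 0. Of the acyl-CoA dehydrogenases, which take the first step for chains of different length, Acadvl gave 0.04, Acadl -0.04, Acadm -0.07 and Acads -0.08. Acads read 800.4, 786 and 796 in wild type and 771, 736 and 749 in transgenic muscle. The groups did not overlap, but the gap between them was small, the level 0.948-fold and the adjusted p 0.836. Its log2 difference was -0.07 in round 1 and -0.09 in round 2.

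Hadh, the dehydrogenase of the third step, read 8842, 8933 and 9254 in wild type and 8419, 8149 and 8199 in transgenic muscle. Every transgenic array lay below every wild type one, at means of 9010 ± 216 and 8256 ± 144 (SD, n = 3). The log2 difference was -0.13 (interval -0.23 to -0.02), a 0.917-fold level, with a p of 0.0221 before and 0.545 after adjustment. It was -0.10 in round 1 and -0.17 in round 2. The brightest probe set of Hadh bears the suffix by which Affymetrix marks probes that can bind other transcripts. The next one, without that mark, gave 4227, 4005 and 4629 against 4249, 3873 and 4088, with overlapping arrays and a difference of -0.07. The dimmest, with that mark, read 289, 315 and 205 against 247, 262 and 114.5. Its arrays overlapped, at -0.41 (interval -0.97 to 0.15, adjusted p 0.745).

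Hadha and Hadhb encode the alpha and beta subunits of the mitochondrial trifunctional protein, which carries out the last 3 steps for long chains. Hadha gave 2640, 2534 and 2953 in wild type and 2736, 2651 and 2823 in transgenic muscle, at 0.02. Hadhb gave 5533, 5253 and 5949 against 5436, 5046 and 5057, at -0.11 with an adjusted p of 0.725. On these brightest probe sets both genes overlapped between genotypes, and on both the highest signal was that of wild type replicate 3. The other kept probe sets of Hadhb gave -0.05 and -0.26, and the one at -0.05 bears the suffix for probes that can bind other transcripts. The difference between the log2 differences of Hadha and Hadhb was not tested.

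Hadha and Hadhb lie head to head, and their starts are 273 bases apart in the RefSeq table of GRCm38.p6, on opposite strands. Their promoter windows, from 250 bases before to 50 after a start, share 228 bases. The shared stretch is shown in the Hadhb window, because it lies between the starts of both genes of the complex, beside the windows of the 3 genes whose arrays did not overlap, Cpt2, Hadh and Acads. They are chr5:30155003-30155302 on the plus strand for Hadhb, and on the minus strand chr4:107923540-107923839 for Cpt2, chr3:131272052-131272351 for Hadh and chr5:115119297-115119596 for Acads. Capitals mark GGGCGG, the core of the GC box that Sp1 factors bind, or its reverse complement CCGCCC.
Hadhb: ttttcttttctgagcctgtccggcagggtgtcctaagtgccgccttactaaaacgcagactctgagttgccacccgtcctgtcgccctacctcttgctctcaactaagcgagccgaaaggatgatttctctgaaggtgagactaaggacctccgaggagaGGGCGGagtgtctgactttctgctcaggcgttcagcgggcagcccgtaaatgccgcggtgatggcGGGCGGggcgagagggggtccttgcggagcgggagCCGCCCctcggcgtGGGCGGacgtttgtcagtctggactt
Cpt2: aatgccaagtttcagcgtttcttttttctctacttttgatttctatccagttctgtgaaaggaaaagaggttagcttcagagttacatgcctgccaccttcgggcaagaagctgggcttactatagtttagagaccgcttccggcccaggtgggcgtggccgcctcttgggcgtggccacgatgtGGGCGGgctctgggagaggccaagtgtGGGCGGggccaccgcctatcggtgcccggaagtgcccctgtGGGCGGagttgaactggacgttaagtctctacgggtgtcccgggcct
Hadh: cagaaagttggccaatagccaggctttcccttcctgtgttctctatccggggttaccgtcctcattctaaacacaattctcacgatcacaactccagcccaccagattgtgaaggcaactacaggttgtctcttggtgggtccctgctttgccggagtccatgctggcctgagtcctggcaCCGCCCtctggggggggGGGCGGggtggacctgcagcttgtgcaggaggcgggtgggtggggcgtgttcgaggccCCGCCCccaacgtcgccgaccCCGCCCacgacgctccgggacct
Acads: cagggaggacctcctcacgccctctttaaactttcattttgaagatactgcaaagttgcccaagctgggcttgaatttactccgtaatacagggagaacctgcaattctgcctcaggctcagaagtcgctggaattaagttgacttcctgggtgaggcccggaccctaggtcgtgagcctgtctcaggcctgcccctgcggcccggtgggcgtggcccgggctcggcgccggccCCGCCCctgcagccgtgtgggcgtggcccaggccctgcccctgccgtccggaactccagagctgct
The Hadhb and Hadh windows hold 4 matches each, the Cpt2 window 3 and the Acads window 1. The Hadha window, which contains the stretch shared with Hadhb, holds 1. At most 1 of the 4 matches of the Hadhb window therefore lies wholly in the shared stretch, which is not marked above. Of the 39 genes, 33 matched the RefSeq table, Acsl1 among them, and 69.7% of these had GGGCGG on either strand in a window, against 65.9% of the 10405 genes tested that were in the table and 38.2% of all its genes. By window it was 68.4% of 38 against 35.7% of all 32851. The nuclear receptor half-site AGGTCA, which PPAR and related receptors bind, was in windows of 8 of the 33 genes, 24.2%, against 15.2% of the genes tested and 18.1% of all genes in the table. By window it was 21.1% against 16.3%. Those 8 were Cd36, Acsl6, Cpt1a, Acadm, Acadvl, Echs1, Acacb and Ucp3, and their log2 differences ran from -0.11 to 0.06. The motifs do not overlap each other, a match is no evidence of binding, and none of the 4 windows printed held AGGTCA.

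For the thiolases, which release acetyl-CoA, Acaa2 read 2915, 2694 and 2975 against 2913, 2680 and 3018 on its brightest probe set. Its differences were 0.00, -0.00 and -0.07 on the 3 probe sets. Acat1, which also acts on ketone bodies and isoleucine, gave 3606, 3602 and 3831 against 3635, 3343 and 3340 on its brightest probe set, at -0.10 with overlapping arrays. Its dimmest one read 777, 861 and 929.7 against 737, 751 and 687, with no overlap, a 0.852-fold level and a p of 0.0203 before and 0.539 after adjustment. The third probe set of Acat1 gave -0.11. Echs1, the short-chain hydratase, gave -0.04. Of the enzymes that deal with unsaturated chains, Decr1 read 1862, 1697 and 1997 against 1663, 1708 and 1952, at -0.06, and gave 0.04 on its dimmer probe set. Eci1 gave 0.10.

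The 3 electron transfer genes spanned differences of only 0.01 to 0.02, and Etfb turned to -0.0065 after quantile normalization. Etfb, a subunit of electron transfer flavoprotein, gave 3483, 3512 and 3593 in wild type and 3598, 3376 and 3763 in transgenic muscle, at 0.02 with an interval of -0.11 to 0.15. Its partner subunit Etfa gave 0.01 and Etfdh, which hands the electrons to ubiquinone, 0.02. All 3 genes overlapped between genotypes.

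Of the genes that set malonyl-CoA, Acacb, the carboxylase that makes it at the mitochondrion, gave 0.06, and Mlycd, the decarboxylase that removes it, 0.13. Mlycd read 378, 432 and 442 against 428, 446 and 498, with overlapping arrays and an adjusted p of 0.802. Pnpla2, the lipase that opens stored triglyceride, read 1267, 1267 and 1388 against 1209, 1268 and 1370, at -0.03. Ucp3, a mitochondrial carrier that follows fatty acid supply, read 357, 385 and 475 against 399, 364 and 443, at -0.01, and 0.05 on its other probe set. In both genotypes replicate 3 was the highest. Acot2, the thioesterase of the mitochondrial matrix, gave 205, 215 and 243 against 164, 217 and 181, at -0.22 (interval -0.51 to 0.06, adjusted p 0.719).

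Of the regulators, Ppargc1a, the coactivator PGC-1alpha, read 377, 342 and 274 in wild type and 321, 269 and 229 in transgenic muscle on its brightest probe set. The arrays overlapped, at -0.26 (interval -0.58 to 0.05, adjusted p 0.705). Its 4 other kept probe sets gave -0.41, -0.14, 0.00 and 0.21, and the one at 0.00 bears the suffix for probes that can bind other transcripts. The one at 0.21 read 189, 185 and 176 against 206, 191 and 249, so that every transgenic array lay above every wild type one there. Ppara, the main fatty acid receptor, gave -0.07, -0.08 and -0.09 on its 3 probe sets, and Ppard, the form most abundant in muscle, 0.09 with an interval of -0.36 to 0.54.

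**Figure D2:**
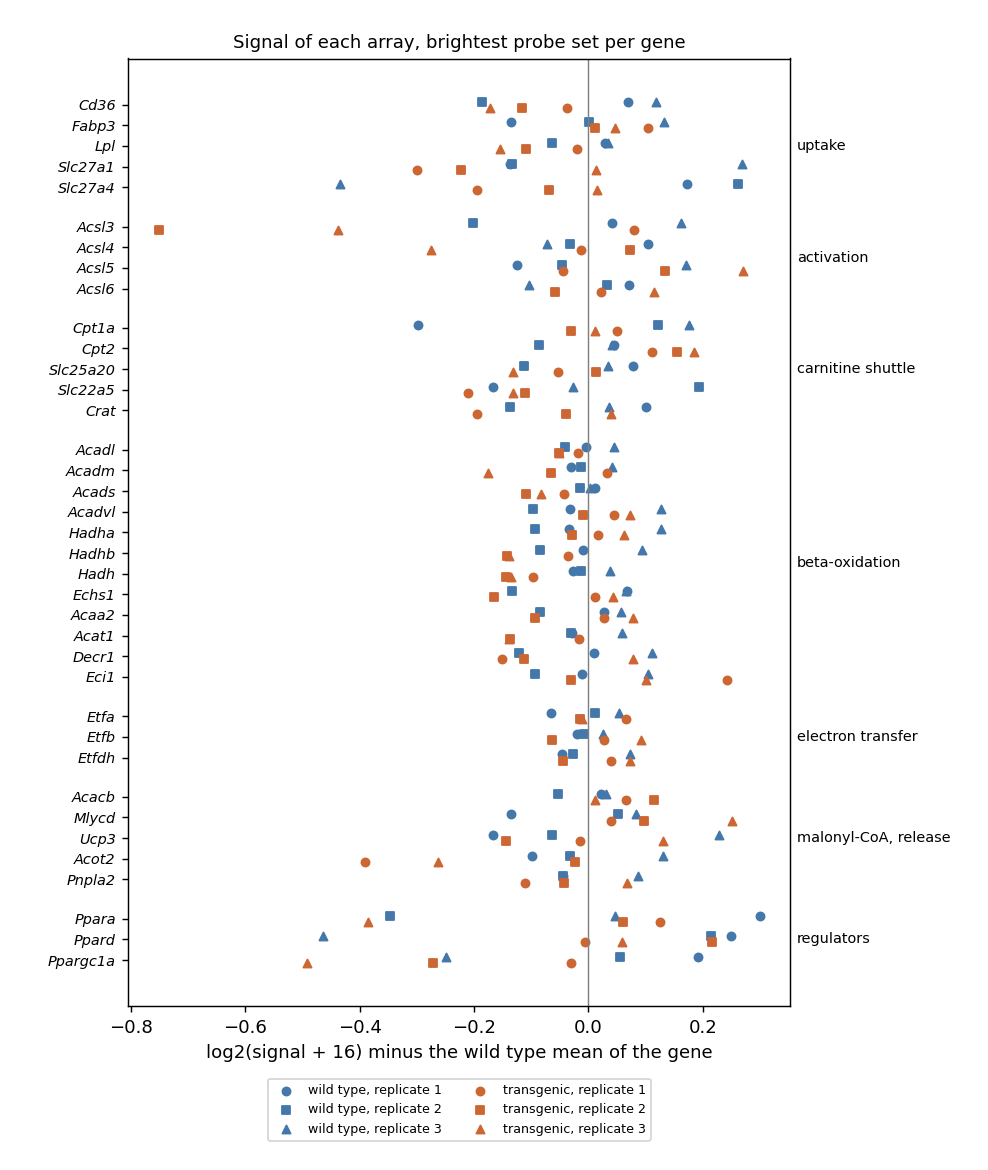
Signal of every array for the 37 genes by role, as log2(signal + 16) minus the wild type mean of the gene, with blue for wild type, orange for transgenic and a marker for each replicate. Only Cpt2, Acads and Hadh show no overlap between colours, and wild type replicate 3 often lies to the right.

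Probe sets of 1 gene often disagreed in sign. Of the 21 genes with more than 1 kept probe set, 9 had all differences below 0, 2 had all above 0 and 10 had both signs. Across all 70 probe sets 45 lay below 0 and 25 above. Arrays did not overlap for 3 probe sets that were higher and 6 that were lower, beside 13.4% of all probe sets, 5.85% higher and 7.5% lower. For Ppargc1a the probe sets spanned -0.41 to 0.21, the widest range of the 21 genes.

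**Figure D3:**
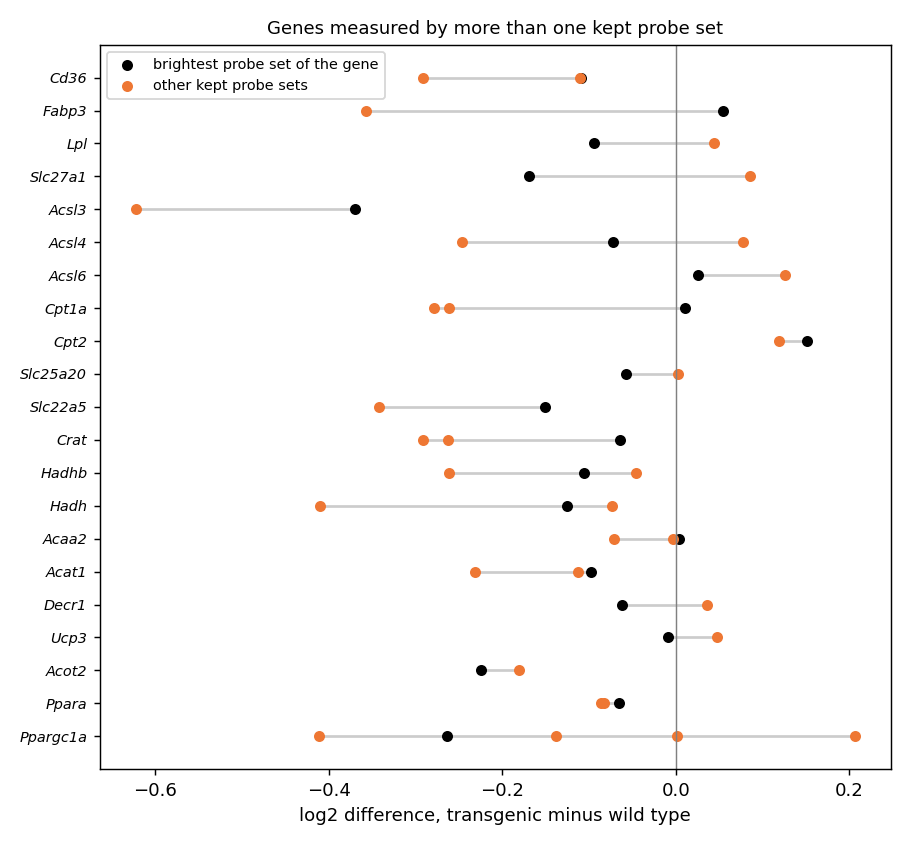
Log2 difference of transgenic minus wild type for each kept probe set of the 21 genes with more than 1, with black points for the brightest probe set, orange points for the others and a grey line over the range. For 10 genes the points lie on both sides of 0.

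The pools varied in these genes within a genotype. Wild type replicate 3 held the highest signal of the 6 arrays for 17 of the 37 genes, 45.9%, while it was highest for 14.8% of all genes. Transgenic replicate 2 was highest for 1 gene, and wild type replicate 2 and transgenic replicate 1 for 2 each. Over all genes these 3 arrays were highest for 14.9%, 17.2% and 12.9%. For the 15 genes of beta-oxidation and electron transfer, wild type replicate 3 was the highest array for 8 and the lowest for 0. Transgenic replicate 2 was the lowest for 6 of them. Over all genes wild type replicate 3 was the lowest for 15% and transgenic replicate 2 for 16%. The median deviation of wild type replicate 3 from a gene's mean was 0.08, against 0.01 over all genes. Without this array the median genotype difference of the 37 genes was -0.026. It was nearer 0 without wild type replicate 1, at -0.019, and without transgenic replicate 1, at -0.017. Without wild type replicate 2, transgenic replicate 2 or transgenic replicate 3 it was -0.053, -0.035 and -0.033.

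By hybridisation round, the median genotype difference was -0.01 in round 1, with 2 arrays of each genotype, and -0.09 in round 2, with 1. The wild type array of round 2 exceeded those of round 1 by a median of 0.09 over the fatty acid genes and 0.00 over all genes. The transgenic one differed by -0.01 and 0.02. Signs were the same in both rounds for 21 of 37 genes.

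**Figure D4:**
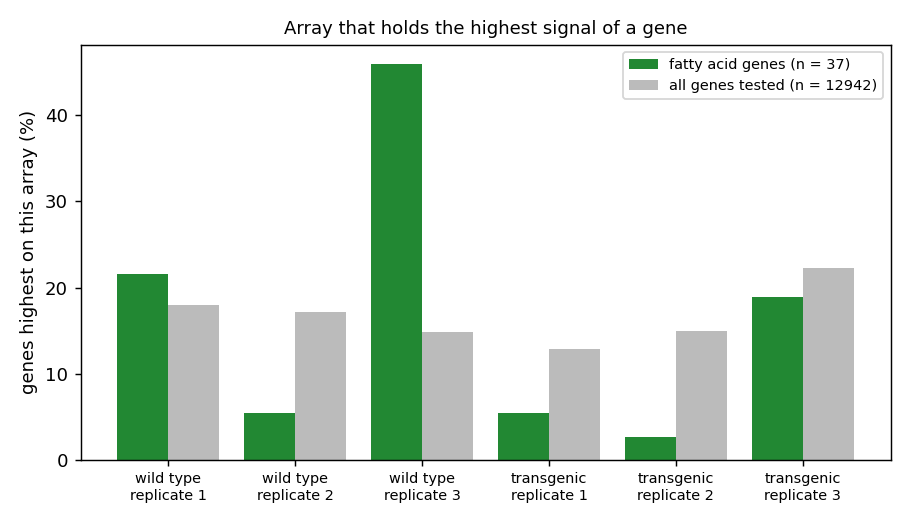
Share of genes, in percent, whose highest signal lay on each of the 6 arrays, with green bars for the 37 fatty acid genes and grey bars for the 12942 genes tested. Wild type replicate 3 held 45.9% of the fatty acid genes and 14.8% of all genes.

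Further genes of the pathway were taken from 4 lists with 83 genes, of which 78 had a kept probe set. None of their 150 probe sets passed the adjusted threshold in limma, and 15 had an unadjusted p under 0.05, beside 7.85% of all probe sets. Of the 15, 4 were higher and 11 lower in transgenic muscle, where 3.51% of all probe sets were higher and 4.34% lower. The 78 genes had a median log2 difference of 0.00, with 39 on either side of 0. Arrays did not overlap for 10 of them, 2 higher and 8 lower, where 14.2% of all genes did not overlap, 6.65% higher and 7.59% lower. By probe set 4 of the 150 were higher and 17 lower without overlap, beside 5.85% and 7.5% of all probe sets.

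In uptake and handling, 12 genes had a median of -0.00. Fabp5, a fatty acid binding protein of skin and other tissues, averaged 1123 in wild type muscle and 1327 in the transgenic arrays, 1.18-fold, with arrays that did not overlap and an adjusted p of 0.481. Fabp4, that of adipocytes and capillaries, gave 0.01 on its brightest probe set, -0.25 and -0.30 on others and -0.40 on the dimmest, where the arrays did not overlap and the adjusted p was 0.460. Dbi, which binds acyl-CoA, gave -0.02 on its brightest probe set and -0.48 on its dimmest.

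In the list of other oxidation enzymes, 25 genes had a median of -0.04. Oxct1, which lets muscle burn ketone bodies, gave -0.07 on its brightest probe set and -0.19, -0.27 and -0.32 on the others. On the probe set at -0.19 the signals averaged 2684 in wild type and 2350 in transgenic muscle without overlap, with an adjusted p of 0.526, and those at -0.27 and -0.32 did not overlap either. Acad10, of the acyl-CoA dehydrogenase family, read 93.7, 77.9 and 76.9 against 6.62, 42.0 and 17.8 on a dim probe set, a log2 difference of -1.48 and an adjusted p of 0.136. Its other probe set gave 0.47 with overlapping arrays. Nudt7, a peroxisomal hydrolase of CoA, gave -0.62 on a dim probe set, without overlap and with an adjusted p of 0.561. Without transgenic replicate 2 the dim probe set of Acad10 passed, at -1.83 and an adjusted p of 0.0361. It bears the suffix for probes that can bind other transcripts, as the brightest one of Hadh does.

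Among lipid droplet and synthesis genes, 20 had a median of -0.01. Gpam, which starts glycerolipid synthesis, averaged 3637 in wild type muscle and 4203 in the transgenic arrays, 0.20 on the log2 scale, with no overlap and an adjusted p of 0.594. The fatty acid elongase Elovl5 gave -0.19, with no overlap, and the citrate lyase Acly -0.21. Of the other regulators, 21 genes had a median of 0.03. Nr4a3, an orphan nuclear receptor, gave -0.37 on its brightest probe set. Prkag3, the AMP kinase subunit of fast muscle, gave -0.26, and Pdk2, a kinase that turns off pyruvate dehydrogenase, 0.18, with adjusted p of 0.520, 0.539 and 0.593.

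Cells other than fibres also express several of these genes, and in bulk RNA fewer cells of a type cannot be told apart from less RNA per cell. The summed signal of 7 adipocyte markers was 19400 to 20530 in wild type and 18760 to 20290 in transgenic muscle, and Adipoq, adipocyte-specific, averaged 4544 and 4280. Of these 7 genes 3 lay above 0 and 4 below, from 0.23 to -0.67, with a median of -0.08. The lowest was Adig, at an adjusted p of 0.291, which passed without transgenic replicate 3, at -0.88 and 0.0456, and when the fluidics module was a random block, at -0.64 and 0.0456. That block lay within genotype, and its fit took a correlation of -0.44 between arrays of a module. A negative value narrows the errors of genotype differences, so passing with this block is not added evidence. The 6 brown fat markers summed to 22180 to 23260 and 21560 to 22580. The 8 endothelial markers summed to 2005 to 2269 and 1836 to 2126, with 2 genes above 0, 6 below and a median of -0.16. They ran from 0.04 to -0.36, the latter for Tek, whose adjusted p was 0.313 and, with the module block, 0.0471. Slow fibre markers summed to 51340 to 61770 and 51770 to 63030, so these lists overlapped between genotypes.

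Other sums did not overlap. The 9 mitochondrial markers gave 86220 to 88910 in wild type and 77520 to 85550 in transgenic muscle, among them Uqcrc2, of respiratory complex III, at -0.31 with an adjusted p of 0.136, and of 0.0137 with the module block. All 9 genes lay below 0, with a median of -0.08. The 8 skeletal muscle markers gave 157300 to 161300 and 143000 to 150500, and Actn3, at -0.14 here, gave 0.02 after quantile normalization. All 8 lay below 0, with a median of -0.12, and 6 did not overlap, beside 14.2% of all genes. The highest signal on an array was 23550 to 23950 in wild type and 21390 to 22470 in transgenic muscle. How far such a shift at the bright end enters these sums and the brightest fatty acid genes was not tested. The 6 macrophage markers gave 4787 to 5111 and 4314 to 4756, and the 5 heart markers, of which 4 lay below the filter, 99.22 to 109.5 and 61.62 to 65.76. No marker of these lists passed the adjusted threshold without such a block and with all arrays, and the part of any of them in the values of the fatty acid genes was not tested.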

How the data were processed

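The value table held 45101 rows, of which 64 were controls. The submitters' processing notes name GCOS 1.1.1 for the deposited intensity values, which are linear in scale. The sources used here do not give its algorithm or scaling. Run files gave hybridisation rounds and modules. Signals were analysed as log2(signal + 16) without further normalization, and probe sets were kept above the 40th percentile of mean log2 signal, about 21.7. A linear model without covariates was fitted in limma 3.58.1 (R 4.3.3) with moderated variances and an intensity trend, two-sided, with Benjamini-Hochberg adjustment over all 27022 kept probe sets at 0.05. The code was also run on data simulated with normal noise and no array or round effects. Such a run cannot show how the model performs on the present arrays. Each array is 1 pool of animals, and 3 arrays a genotype limit the precision. Symbols came from the platform annotation, updated through gene identifiers to RefSeq (GRCm38.p6), from which promoters also came. Of 45037 probe sets, 34945 carried 1 symbol (34741 matched RefSeq), 932 several and 9160 none. Alternatives changed the offset, normalization, filter, variance model, blocks and arrays. All members could be named, with array values for those with an unadjusted p under 0.05, without overlap, brightest in a role or with probe sets of both signs, and up to 3 genes of each other list by smallest p, besides Itga7. Adipoq and single members beyond these were given array values after their values were seen. Members and lists were chosen with earlier results of these data known.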

Additional observations from a re-analysis of the deposited data

How the results depend on the processing

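No member probe set passed under any of the 18 alternative fits, and their lowest adjusted p was 0.0813, in hybridisation round 1 alone. That restriction and the fluidics module as a random block were chosen after seeing the data. The module block lay within genotype and had a negative estimated correlation, -0.44, which narrows the errors of genotype differences. Its smaller p-values and larger count of calls are therefore not added evidence. Of 755 member values under the alternatives 711 kept their sign and 44 changed it. The count of all called probe sets, 33, was 50 with equal array medians, 17 without a filter, 1 without an intensity trend, 297 with the module block and 18 to 39 without 1 array (19 without wild type replicate 1, 18 without wild type replicate 2). With the replicate block it was 36, no member was called and the members' median stayed -0.04; same-numbered arrays deviated together at a correlation of only 0.0030, 0.060 and 0.049, so the numbers were not taken as pairs. The members' median was 0.010 with equal array medians, which moved that of all genes from -0.00 to 0.05. The count of 3 members without overlap was 5 to 11 without any 1 of the 6 arrays (23.9% to 25.6% of all genes, with fewer arrays to separate), 12 in round 1 alone (39.1%) and 6 with the mean over a gene's probe sets (14.3%). Of the other pathway genes, 0 to 1 passed without 1 array (Acad10 without transgenic replicate 2), and 1, Acad10, with the module block, under which the markers Uqcrc2 (adjusted p 0.0137), Adig (0.0456) and Tek (0.0471) passed too. Signs changed for Etfb (-0.0065) and Actn3 (0.019) with quantile normalization, for Acadl (0.010), Echs1 (0.013), Ucp3 (0.042) and Pnpla2 (0.022) with equal medians, for Acaa2 (-0.004) and Ppara (0.015) with array weights and for Ucp3 (0.0034) with the module block. In round 1 alone they changed for Acsl6 (-0.070), Acadm (0.0047), Acaa2 (-0.0043), Etfb (-0.0049), Ucp3 (0.036), Ppara (0.12) and Ppard (-0.13). Leaving out 1 array gave -0.013 to 0.12 for Fabp3, -0.30 to 0.048 for Slc27a4, -0.14 to 0.030 for Acsl4, -0.026 to 0.068 for Acsl6, -0.14 to 0.099 for Cpt1a, -0.13 to 0.0006 for Crat, -0.012 to 0.10 for Acadvl, -0.029 to 0.080 for Hadha, -0.10 to 0.027 for Echs1, -0.039 to 0.052 for Acaa2, -0.019 to 0.041 for Etfa, -0.018 to 0.060 for Etfb, -0.0023 to 0.059 for Etfdh, -0.092 to 0.11 for Ucp3, -0.076 to 0.015 for Pnpla2, -0.24 to 0.094 for Ppara and -0.14 to 0.21 for Ppard. The causes were not tested.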
